A study of Homo sapiens with 8 samples.

Results

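The S100 calcium binding proteins followed here are 9 genes, S100A4, S100A6, S100A8, S100A9, S100A10, S100A11, S100A12, S100A13 and S100P, taken by symbol from a table of 26475 genes. They were measured by bulk RNA sequencing in MOLM-13, a human acute myeloid leukaemia line that carries the KMT2A-AF9 fusion. The 4 groups, of 2 libraries each, were cells given DMSO (the solvent control), VTP50469, WM1119, or both inhibitors together, called the combination below. VTP50469 is a small molecule that keeps Menin off KMT2A. WM1119, which the sample labels spell WM119, inhibits the lysine acetyltransferase KAT6A. All 8 libraries come from this 1 line, so the fusion is also present in the controls. The sources used here do not give the dose, the duration or whether the 2 libraries of a group were separate cultures, so p-values measure the spread between libraries, which may be technical.

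S100 proteins are small proteins with a pair of EF-hand calcium binding loops, and most work as dimers. Inside the cell they bind annexins, myosin and other partners when calcium rises, and several are also released and act on receptors such as TLR4 and AGER (RAGE). S100A8, S100A9 and S100A12 are the calgranulins, made in quantity by neutrophils and monocytes, and S100A8 and S100A9 pair as calprotectin, an antimicrobial protein and marker of inflammation.

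The main result is that S100A8 and S100A9 were the members with the greatest fold changes, and were highest by far in the combination. On group means S100A8 was 78.96-fold and S100A9 57.7-fold above DMSO, a mean drawn up by the second combination library. The first was 34.1-fold and 26.8-fold above DMSO. S100A4, S100A6 and S100A11 were also called higher in the combination, by smaller amounts, whereas S100A10, S100A13 and S100P were not called. S100A12, whose gene lies between those of S100A8 and S100A9, had at most 2 counts in any library.

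Of the 9 genes, 8 lie on chromosome 1 between 151982915 and 153634361 (hg38, RefSeq genes), a stretch of 1651.4 kb with 63 protein-coding genes, of which 16 are S100 genes. S100A9 (chr1:153357854-153361023, plus strand), S100A12 (chr1:153373711-153375621, minus strand) and S100A8 (chr1:153390032-153391073, minus strand, canonical transcript) follow each other with no other protein-coding gene between them. S100A6 (chr1:153534599-153535991) and S100A4 (chr1:153543621-153545806) sit further along on the minus strand. S100P is alone on chromosome 4 (chr4:6693878-6697170, plus strand). Each of the genes on chromosome 1 has 3 exons in its canonical transcript and S100P has 2. The transcripts are all short, from 408 nt for S100A8 to 671 nt for S100A10, which matters for the reading of 2 libraries described below.

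The sequences just upstream of S100A9 and S100A8 are shown because these are the genes that moved most and moved together. They are RefSeq sequence of GRCh38.p14, written 5′ to 3′ on the strand of the gene. Capitals mark matches, on either strand, to 3 motifs: GAGGAA, the core bound by PU.1 (read as TTCCTC on the opposite strand), TTNNGNAA, a loose C/EBP site, and TATAAA, the TATA box. The S100A9 window is chr1:153357604-153357853, the 250 bases before the start. The S100A8 stretch is chr1:153391189-153391323, the first 135 of the 250 bases before its canonical start, since the rest lies past another RefSeq start upstream of the canonical one.

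S100A9: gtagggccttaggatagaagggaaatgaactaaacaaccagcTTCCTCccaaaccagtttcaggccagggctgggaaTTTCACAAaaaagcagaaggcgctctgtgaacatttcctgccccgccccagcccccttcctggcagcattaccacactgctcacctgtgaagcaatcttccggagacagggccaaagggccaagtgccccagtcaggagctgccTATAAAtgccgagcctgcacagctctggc
S100A8: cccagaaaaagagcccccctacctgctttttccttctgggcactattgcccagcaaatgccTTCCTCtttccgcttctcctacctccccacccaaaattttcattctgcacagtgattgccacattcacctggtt

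In the S100A9 window the PU.1 core began 208 bases before the start, the C/EBP match 173 bases and the TATA box 29 bases before it. The 250 bases before the canonical start of S100A8 also held 1 match to each motif, at 189 bases for PU.1, 117 bases for C/EBP and 29 bases for TATA. The C/EBP match runs past the end of the stretch shown and is left in lower case there, and the TATA box lies outside it. Among all 35116 RefSeq promoter windows of 250 bases, 33.2% held the C/EBP letters, 23.6% the PU.1 letters and 10.7% the TATA box. No match to the PU.1 letters was found in the window of any other member at its canonical start. C/EBP matches were found there for S100A6, S100A11, S100A12 and S100P. TATA matches were found for S100A4, S100A12, S100A13 and S100P, so these letters do not set S100A8 and S100A9 apart. A match is a description of the letters and was not tied to binding by any measurement here.

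Before the values, the libraries themselves differ. Total counts were 18092906 to 23634468 per library. The second combination library stood apart, with 12972 genes detected against 14142 to 14544 in the others and 1842 of 12401 tested genes over 2-fold apart from the first combination library, against 27 to 83 within the other groups. In this library and in the first WM1119 library short transcripts were relatively high. The Spearman correlation across genes between transcript length and the log2 difference from DMSO was -0.56 and -0.52 in those libraries, and -0.29 to 0.09 in the other 4 treated libraries. Over the 429 tested genes with transcripts under 800 nt the median log2 difference was 0.88 in the second combination library and 0.33 in the first WM1119 library, against 0.00 in the first combination library. Because every S100 transcript is short, the main S100 results below are also given without the second combination library or from a fit that carries an offset for transcript length. The offset was added after the data were seen.

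**Figure D1:**
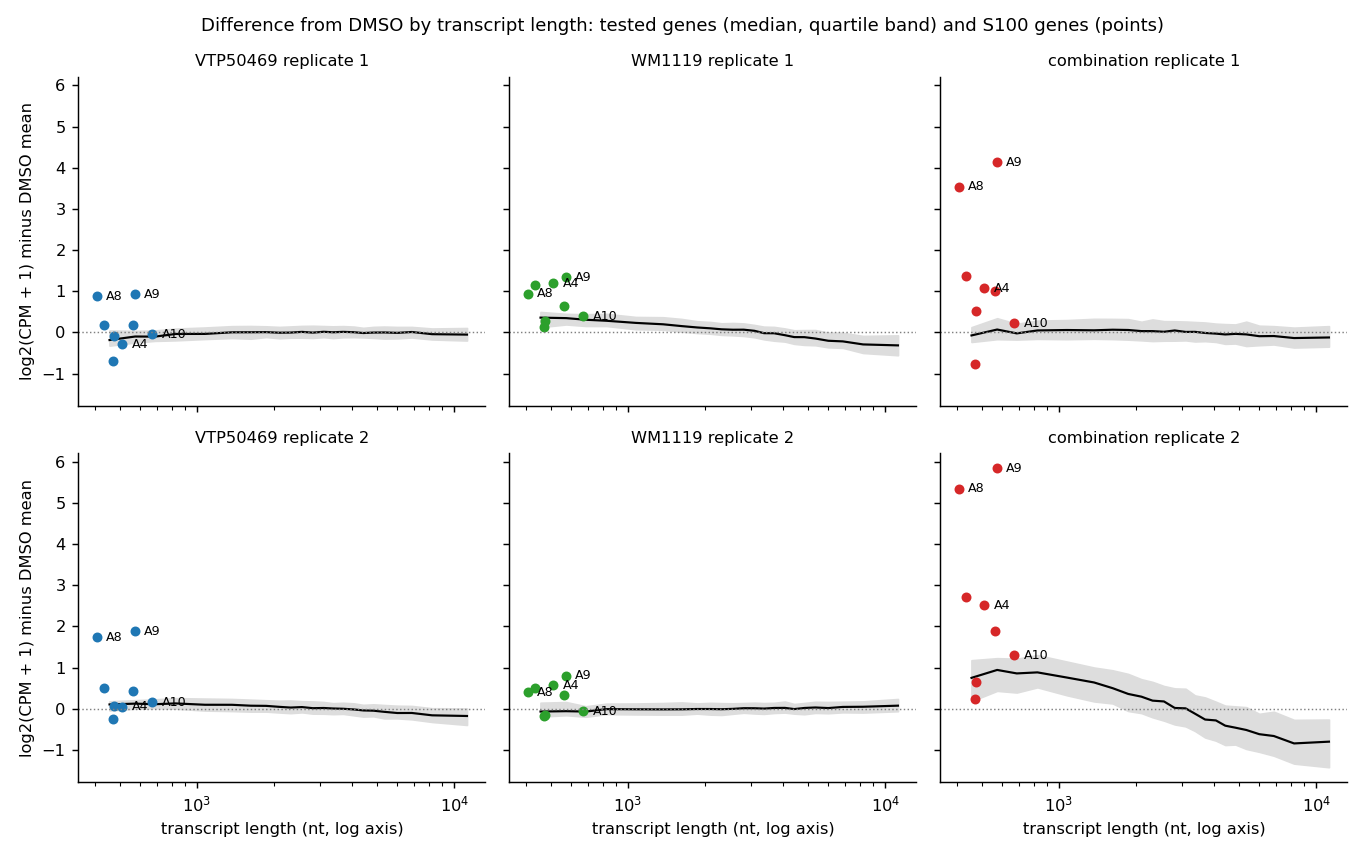
Log2(CPM + 1) minus the DMSO mean (vertical) against transcript length in nt (horizontal, log axis) for each treated library. The black line is the median and the grey band the quartiles of tested genes in bins of length, and points are the 8 tested S100 genes. In the second combination library the line lies near 0.9 at the length of the S100 genes and S100A10 sits just above the band, while S100A8 and S100A9 lie far above it in both combination libraries.

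The calgranulins come first. S100A8, the smaller subunit of calprotectin, was at 0.379 and 0.569 CPM (counts scaled to a common library size, with TMM factors) in the DMSO libraries, from 7 and 12 counts. It was at 1.72 and 3.91 CPM with VTP50469, at 1.83 and 0.938 CPM with WM1119, and at 16.2 and 58.7 CPM in the combination. The lower combination library lay above all 6 others, and both libraries of each single inhibitor lay above both DMSO libraries. Against the DMSO mean the second combination library was 124-fold higher.

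S100A9, the larger subunit and the one that anchors the pair, kept the same order. Its DMSO libraries were at 1.35 and 2.13 CPM, those with VTP50469 at 4.17 and 9.004 CPM and those with WM1119 at 5.92 and 3.75 CPM. The combination libraries were at 46.7 and 154 CPM, the higher one 88.6-fold over the DMSO mean. Here too no combination library overlapped any other, and no DMSO library overlapped a treated one. The ratio of S100A8 to S100A9 counts was 0.280 and 0.267 in DMSO, 0.412 and 0.434 with VTP50469, 0.309 and 0.250 with WM1119 and 0.346 and 0.380 in the combination. Thus the pair moved by similar factors, and the ratio was highest in the 2 VTP50469 libraries.

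**Figure D2:**
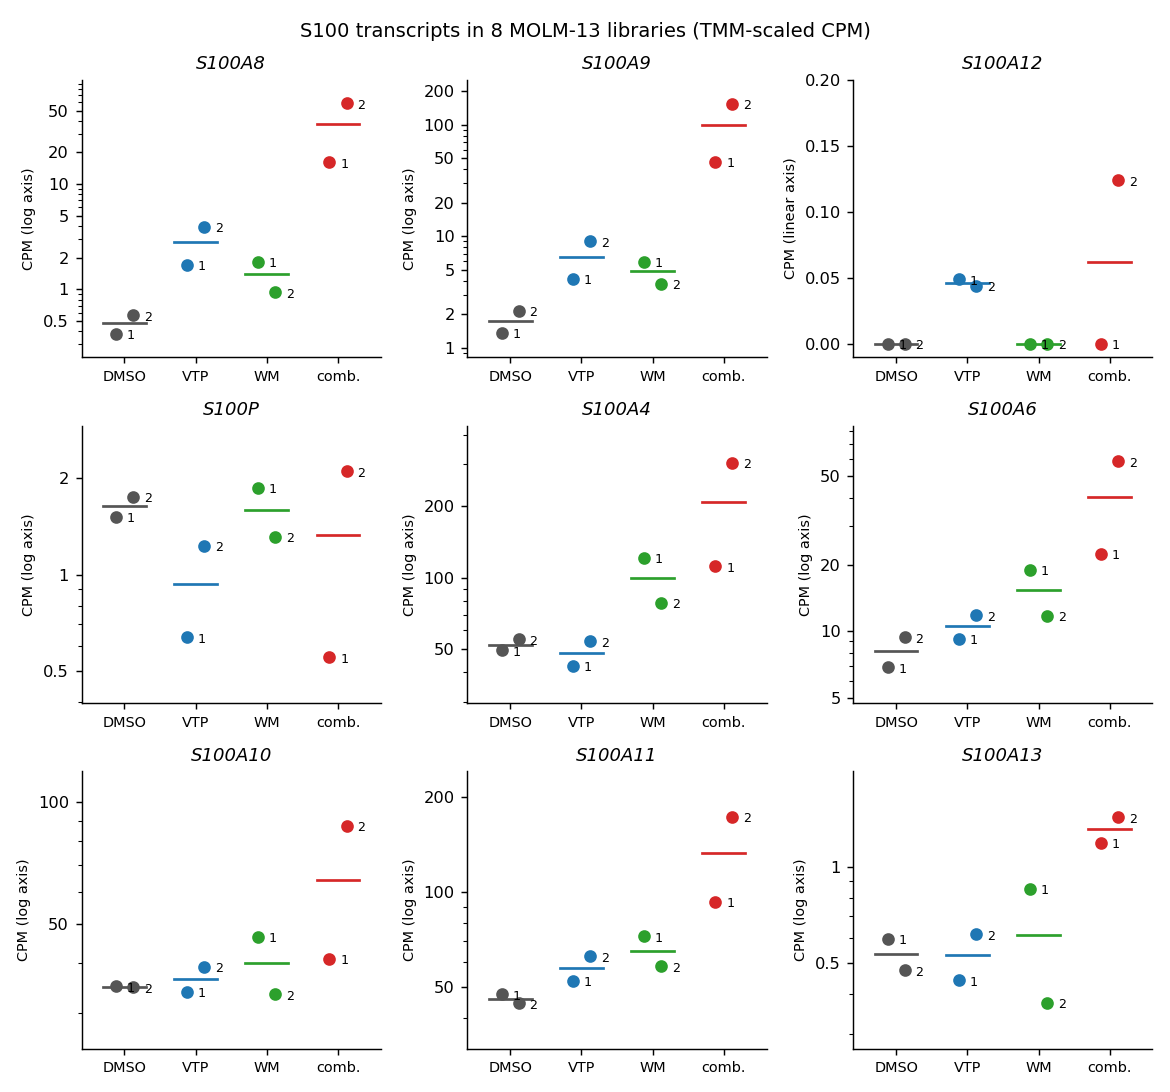
TMM-scaled CPM of each S100 gene in the 8 libraries. Points are libraries, numbered by replicate, and bars are group means of 2; the vertical axis is logarithmic except for S100A12. The combination points of S100A8 and S100A9 lie above all other points, from 16.2 to 58.7 and from 46.7 to 154 CPM, whereas S100P overlaps between groups.

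Differential expression was tested with the edgeR quasi-likelihood test in 1 fit of all 4 groups, and the threshold for a call was an adjusted p (Benjamini-Hochberg, over the 12401 genes tested) under 0.05. Of the S100 genes 8 were tested. For the combination against DMSO, 5 of these 8 were called, all higher, where 9.29% of all genes were called and 5.85% were called higher. S100A8 changed by a log2 of 6.27 (SE 0.86, adjusted p = 0.00936) and S100A9 by 5.83 (SE 0.75, adjusted p = 0.00761). Of the 8 tested members, 7 had both combination libraries above both DMSO libraries, against 29.0% of all genes. DESeq2 called the same 5, where it called 10.2% of all genes higher. For 5, namely S100A6, S100A8, S100A9, S100A11 and S100A13, both lay above all 6 other libraries, against 13.2% of genes. In bulk RNA a change in the share of cells that make these transcripts and a change in the amount per cell cannot be told apart.

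The higher levels of S100A8 and S100A9 did not rest on the library that stood apart. Without the second combination library, which leaves the first alone in its group, the log2 changes were 5.07 and 4.74. With the length offset they were 5.44 (edgeR adjusted p = 0.000541) and 5.07 (edgeR adjusted p = 0.000499). Both calls were lost when either DMSO library was left out, with the log2 change kept and adjusted p up to 0.126 and 0.111.

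S100A12, the third calgranulin and a ligand of AGER, had no count in DMSO or WM1119, 1 count in each VTP50469 library, and 0 and 2 counts in the combination. All groups were at or below the floor of 3 counts (0.0758 CPM over the DMSO group and 0.0755 CPM over the combination), so no fold is given. Intervals and floors cover counting error only. A level of S100A12 like that of its neighbours in the combination would have been seen at this depth: S100A8 had 381 and 947 counts and S100A9 had 1102 and 2492 in the same libraries.

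S100A4, S100A6, S100A10 and S100A11 are widely expressed intracellular members and made up most of the S100 signal in every group. S100A4 binds non-muscle myosin and is known for its part in cell motility. Its libraries were at 49.6 and 55.02 CPM in DMSO, 42.6 and 54.0 CPM with VTP50469, 121 and 78.5 CPM with WM1119, and 112 and 304 CPM in the combination. WM1119 and the combination lay above DMSO and above VTP50469 without overlap, while the 2 groups overlapped each other. The combination changed S100A4 by a log2 of 1.99 (SE 0.46, edgeR adjusted p = 0.0453).

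S100A6, or calcyclin, binds CACYBP and annexins. It was at 6.87 and 9.39 CPM in DMSO, 9.27 and 11.8 CPM with VTP50469, 18.9 and 11.7 CPM with WM1119, and 22.4 and 58.6 CPM in the combination. The combination libraries were the 2 highest, VTP50469 overlapped both DMSO and WM1119, and the change from DMSO was 2.31 (log2, SE 0.48, edgeR adjusted p = 0.0335).

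S100A11, a partner of annexin A1, was at 47.6 and 44.4 CPM in DMSO, 52.5 and 62.7 CPM with VTP50469, 72.5 and 58.2 CPM with WM1119, and 93.1 and 173 CPM in the combination. Every treated library lay above both DMSO libraries, and the combination was highest (log2 1.53, SE 0.30, edgeR adjusted p = 0.0269). These 3 changes were smaller and less stable than those of the calgranulins. Their calls were lost when any 1 library of DMSO, VTP50469 or WM1119 was left out. Without the second combination library, which leaves the first alone in its group, the log2 changes were 1.11 for S100A4, 1.47 for S100A6 and 1.03 for S100A11. With the length offset they were 1.26, 1.58 and 0.91, and were called (edgeR adjusted p = 0.00126, 0.00136 and 0.00253). In that fit 11.5% of all genes were called higher.

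S100A10, which forms a complex with annexin A2, was at 35.0 and 34.8 CPM in DMSO, 33.9 and 39.0 CPM with VTP50469, 46.4 and 33.4 CPM with WM1119, and 40.9 and 87.4 CPM in the combination. The first combination library was only 1.17-fold over the DMSO mean, and lay below the first WM1119 library. The log2 change was 0.88 (95% interval 0.05 to 1.70, edgeR adjusted p = 0.148), and with the length offset it was 0.24 (edgeR adjusted p = 0.131). Leaving out the first combination library gave 1.31 (edgeR adjusted p = 0.000691), in a fit with the second library alone that called 60.8% of all genes.

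The remaining 2 members were scarce. S100A13, a member linked to the export of proteins that lack a signal peptide, had 8 to 28 counts per library. Its combination libraries were at 1.19 and 1.43 CPM and the other 6 at 0.375 to 0.852 CPM (combination against DMSO log2 1.28, SE 0.54, edgeR adjusted p = 0.164, and 0.75 with the length offset). The longer S100A13 transcripts overlap S100A1 on the opposite strand and it is not known whether counting used the strand, so reads of the 2 genes may not be separated. S100P, a ligand of AGER, was at 1.52 and 1.76 CPM in DMSO, 0.638 and 1.23 CPM with VTP50469, 1.87 and 1.31 CPM with WM1119, and 0.551 and 2.11 CPM in the combination. The 2 combination libraries were the lowest and the highest of all 8, and the log2 change of -0.34 (95% interval -1.89 to 1.22) had no settled sign. It was -1.10 with the length offset (edgeR adjusted p = 0.108) and -1.55 without the second combination library. It was 0.35 without the first combination library, which leaves the library with the excess of short transcripts.

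**Figure D3:**
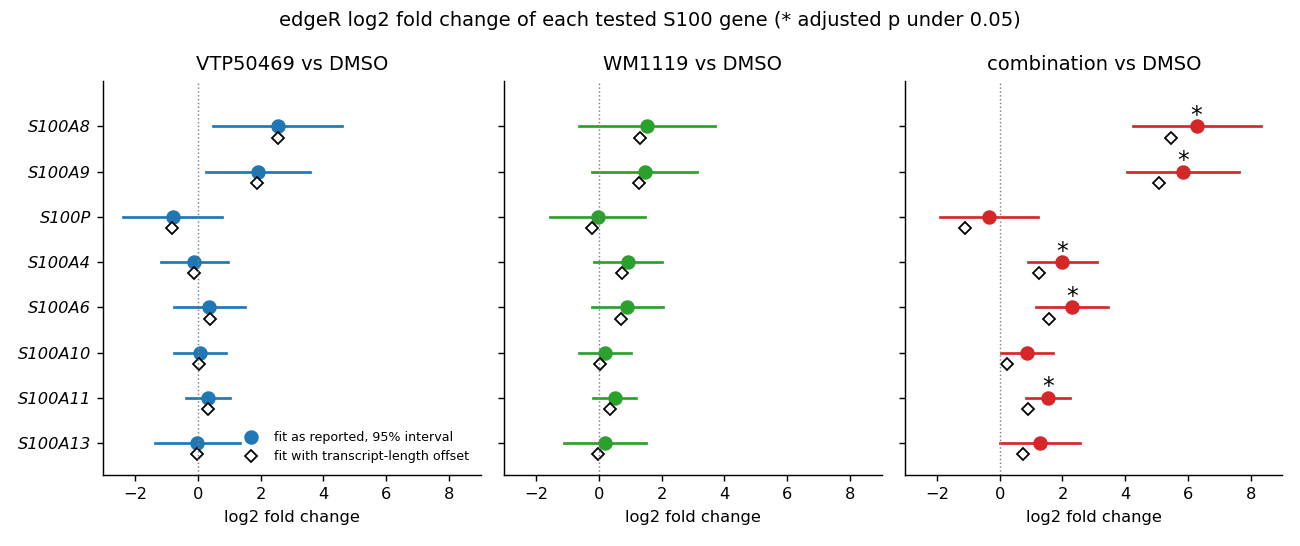
EdgeR log2 fold change from DMSO of the 8 tested S100 genes for VTP50469, WM1119 and the combination. Filled circles with lines are the fit as reported with its 95% interval, open diamonds the fit with a transcript-length offset, and asterisks mark an adjusted p under 0.05; the 3 panels share the same DMSO libraries. The 5 asterisks are all in the combination panel, where S100A8 (6.27) and S100A9 (5.83) lie furthest from 0.

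For the single inhibitors edgeR called none of the 8. With VTP50469, 0.169% of all genes were called, and 2 members had an unadjusted p under 0.05. These were S100A8 (log2 2.55, 95% interval 0.50 to 4.60, adjusted p = 0.530) and S100A9 (log2 1.91, 95% interval 0.26 to 3.56, adjusted p = 0.613). DESeq2 called 1, S100A8, where it called 0.991% of all genes higher. Without the second combination and the first WM1119 library edgeR called both, in a fit that called 10.0% of all genes. The log2 differences with the length offset were 2.54 and 1.88 (edgeR adjusted p = 0.0606 and 0.0937). The other 6 members had log2 differences of -0.80 to 0.37, and 3 of the 8 had both VTP50469 libraries above both DMSO libraries, against 27.3% of all genes.

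With WM1119, no member had an unadjusted p under 0.05 in the reported edgeR fit, and 0% of all genes were called by edgeR. DESeq2 called none, with an unadjusted p of 0.0151 for S100A9, 0.0361 for S100A4 and 0.0374 for S100A8. The largest log2 differences were 1.53 for S100A8 (95% interval -0.63 to 3.69), 1.46 for S100A9 (-0.20 to 3.12), 0.93 for S100A4 (-0.13 to 2.00) and 0.91 for S100A6 (-0.21 to 2.04). With the length offset they were 1.32, 1.28, 0.75 and 0.72 (edgeR unadjusted p = 0.0311, 0.0134, 0.000604 and 0.00338, adjusted p = 0.521, 0.399, 0.123 and 0.236). S100A11 was then at 0.34 (edgeR unadjusted p = 0.0163, adjusted p = 0.424). No member was called in that fit, where 0.105% of all genes were. Both WM1119 libraries were above both DMSO libraries for 5 of the 8, against 24.1% of all genes. In the second WM1119 library, which had no excess of short transcripts, S100A8 was 1.98-fold, S100A9 2.15-fold, S100A4 1.5-fold and S100A6 1.44-fold over the DMSO mean.

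Between the single inhibitors edgeR called no member (0.0323% of all genes were called) and gave none an unadjusted p under 0.05. DESeq2 called none, with an unadjusted p of 0.0176 for S100A4. S100A4 was the most different, lower with VTP50469 than with WM1119 by a log2 of -1.05 (95% interval -2.12 to 0.02, edgeR adjusted p = 0.942). With the length offset the difference was -0.86 and was called (edgeR adjusted p = 0.0485), where 0.516% of all genes were.

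Against WM1119 alone, the combination had higher S100A8 (log2 4.74, SE 0.76, edgeR adjusted p = 0.0384) and S100A9 (log2 4.37, SE 0.68, edgeR adjusted p = 0.0352), the 2 members called where 1.43% of all genes were. Both calls were lost when any 1 library of DMSO, VTP50469 or WM1119 was left out. With the length offset S100A6 (0.86) and S100A11 (0.56) were called too, and 3.30% of all genes were called higher.

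Against VTP50469 alone no member was called by edgeR, where 0.395% of all genes were, although 6 had an unadjusted p under 0.05. The log2 differences were 3.93 for S100A9 (95% interval 2.35 to 5.50, adjusted p = 0.0683), 3.72 for S100A8 (2.04 to 5.40, adjusted p = 0.0913) and 2.10 for S100A4 (1.00 to 3.20, adjusted p = 0.113). DESeq2 called 5 members, all higher, where it called 3.65% of all genes higher. With the length offset edgeR also called 5, S100A4, S100A6, S100A8, S100A9 and S100A11, where it called 2.42% of all genes higher.

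The interaction asks whether the log2 change of the combination differs from the sum of the 2 single changes. For S100A9 the combination exceeded that sum by 2.46 (95% interval 0.24 to 4.69, unadjusted p = 0.0346 by edgeR, adjusted p = 0.938) and for S100A8 by 2.19 (95% interval -0.62 to 4.995, adjusted p = 0.938). No member was called by edgeR or DESeq2. In edgeR 1 had an unadjusted p under 0.05, and 0% of all genes were called. In DESeq2 the unadjusted p was 0.00279 for S100A9 and 0.0242 for S100A8, and 0.0305% of all genes were called. Both intervals begin near 0 and end past 4 log2 units, so at 2 libraries a group the size of the excess was not settled. With the length offset the excess for S100A4 was 0.62 (edgeR unadjusted p = 0.0106, adjusted p = 0.932), and no member was called. In that fit the excess was 1.91 for S100A9 and 1.58 for S100A8 (edgeR unadjusted p = 0.00715 and 0.0396, adjusted p = 0.932 for both). Without the second combination library it was 1.37 and 0.995, and no member was called. Without the first, which leaves the library with the length bias, 6 members were called in a fit that called 30.9% of all genes.

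Levels can be compared between genes only per length. In DMSO, CPM per kb of transcript was highest for S100A4 (101.9 ± 7.51, SD, n = 2) and S100A11 (81.7 ± 3.92), followed by S100A10 (52.0 ± 0.208) and S100A6 (18.7 ± 4.10). S100P (3.47 ± 0.360) and S100A9 (3.04 ± 0.964) did not differ beyond their spread, nor did S100A8 (1.16 ± 0.330) and S100A13 (1.12 ± 0.179). S100A12 was at 0. Both DMSO libraries kept the first 6 places in this order.

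In the combination S100A9, in the sixth place in DMSO, took the third place in both libraries (81.6 and 270 CPM per kb), behind S100A4 (217 and 593) and S100A11 (165 and 308). S100A8 took the sixth place in the first library (39.6) and the fourth in the second (144), next to S100A10 (61.0 and 130) and S100A6 (51.7 and 135), from which it did not differ beyond the spread. In the VTP50469 libraries S100A11 stood above S100A4, at 93.3 and 111 CPM per kb against 83.1 and 105, and in the other 6 libraries it stood below.

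The make-up of the S100 counts differed between the groups. S100A8 and S100A9 together were 1.21 and 1.82% of the counts of the 9 genes in DMSO, 4.05 and 7.08% with VTP50469, 2.87 and 2.49% with WM1119, and 18.9 and 25.4% in the combination. In this share the 2 combination libraries lay closer to each other than in CPM. S100A4 took 34.7 and 37.0% in DMSO, 29.3 and 29.6% with VTP50469, 45.0 and 41.7% with WM1119 and 33.5 and 36.2% in the combination, so the 2 single inhibitors lay on opposite sides of DMSO. S100A10 took 24.5 and 23.4% in DMSO and 12.3 and 10.4% in the combination, although its own CPM was not lower there. The summed CPM of the 9 genes was 143 and 149 in DMSO, 145 and 182 with VTP50469, 270 and 188 with WM1119 and 333 and 841 in the combination.

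**Figure D4:**
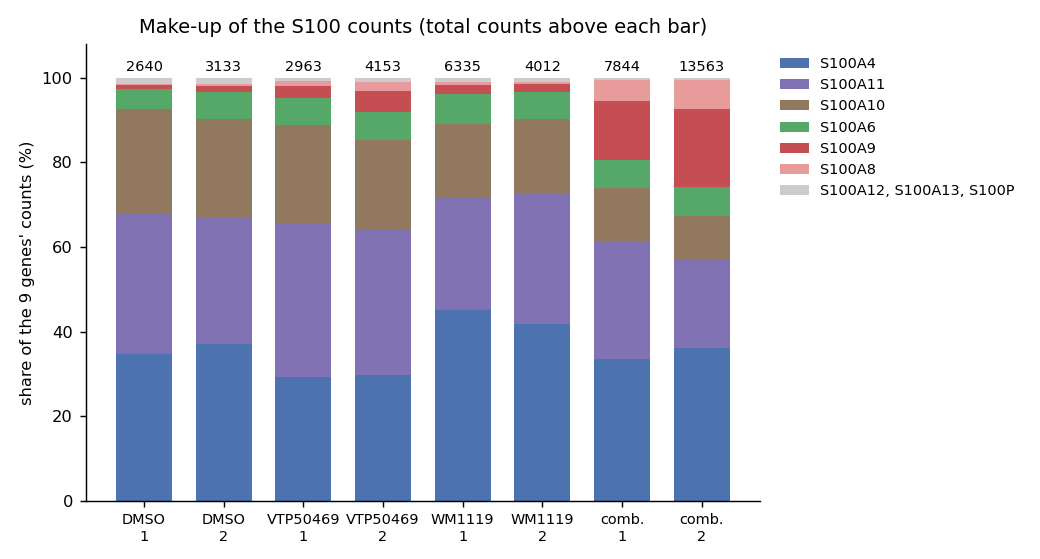
Share of the counts of the 9 S100 genes taken by each gene (vertical, percent) in every library (horizontal, group and replicate), with the total S100 counts above each bar. The red segments, S100A9 and S100A8, take 1.21 and 1.82% in the DMSO libraries and 18.9 and 25.4% in the combination libraries.

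The rest of the family was almost silent. Of 11 other S100 genes in the table, 7 had no count in any library, among them S100A7 and S100A7A, the skin psoriasins. S100A1 had 8, 2, 10 and 23 counts and S100B 7, 0, 8 and 8 counts over the DMSO, VTP50469, WM1119 and combination groups. S100A2 and S100A16 had at most 4 counts in any group, and none of the 11 passed the filter on low counts.

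Of 8 receptors of extracellular S100 proteins, all were tested and 2 were called, both higher in the combination than in DMSO, where 5.85% of all genes were called higher. TLR4, the receptor of S100A8 and S100A9 on myeloid cells, was at 15.6 and 15.4 CPM in DMSO, 57.6 and 60.9 CPM with VTP50469, 16.01 and 19.3 CPM with WM1119 and 85.5 and 43.1 CPM in the combination. Its high libraries were those with VTP50469, alone or combined, and the change in the combination was a log2 of 2.05 (edgeR adjusted p = 0.0131), while VTP50469 alone gave 1.93 (edgeR adjusted p = 0.104). LY96, also on this list, was lower with VTP50469 (0.0981 and 0.176 CPM, from 2 and 4 counts) than in DMSO (0.649 and 0.569 CPM). Its log2 change was -2.09 with VTP50469 (edgeR adjusted p = 0.716) and 0.18 in the combination (edgeR adjusted p = 0.875). CD33, a lectin reported to bind S100A9, changed by 0.80 (edgeR adjusted p = 0.0244). CD14, the co-receptor of TLR4 (log2 3.01, edgeR adjusted p = 0.0576), and AGER (log2 1.32, edgeR adjusted p = 0.0946) missed the threshold. CD14 passed the filter on low counts only through its combination libraries (23 and 46 counts, against 3 to 9 in the others). The median log2 change of the 8 receptors was 0.75, against 1.76 for the 8 tested S100 genes and 0.01 for all genes.

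Of 14 intracellular binding partners 11 were tested and 1 was called, a share close to the 9.29% of all genes called in the combination. ANXA1, the annexin bound by S100A11, was at 22.3 and 18.5 CPM in DMSO, 60.0 and 68.5 CPM with VTP50469, 28.6 and 25.6 CPM with WM1119 and 133 and 193 CPM in the combination. The groups did not overlap, and the combination differed from DMSO by a log2 of 2.998 (edgeR adjusted p = 0.00187) and from WM1119 by 2.59 (edgeR adjusted p = 0.00757). ANXA2, the partner of S100A10, differed by 0.51 (edgeR adjusted p = 0.113), AHNAK, which binds the complex of S100A10 and annexin A2, by -0.96 (edgeR adjusted p = 0.212) and PPFIBP1, a liprin bound by S100A4, by -0.61 (edgeR adjusted p = 0.169). The median over the 11 was 0.06. Without the second combination library the log2 changes were 2.47 for TLR4, 0.64 for CD33 and 2.72 for ANXA1. With the length offset TLR4, CD33, ANXA1 and CD14 (2.55) were the genes called among these receptors and partners, where 11.5% of all genes were called higher.

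Some markers of monocytes and neutrophils, the cells that normally make calgranulins, were also called in the combination, in both directions. The monocyte markers summed to 698 to 751 CPM in DMSO, 1948 to 2403 with VTP50469, 1667 to 1719 with WM1119 and 6631 to 8743 in the combination, most of it LYZ, the gene of lysozyme. Of 7 tested, LYZ (log2 3.70), MNDA (3.76) and CSF1R (2.64) were called higher in the combination than in DMSO and VCAN (-2.80) lower (edgeR adjusted p = 0.00119, 0.00223, 0.00156 and 0.0405), while CD14, CTSS and FCGR1A were not called. In that comparison 9.29% of all genes were called. With the length offset CD14 (2.55), FCGR1A (0.71) and CTSS (0.49) were called higher too (edgeR adjusted p = 0.0356, 0.0477 and 0.0167). VCAN (-2.38) was still called lower there (edgeR adjusted p = 0.00493), in a fit that called 11.5% of all genes higher. VCAN was at 40.5 and 32.0 CPM in DMSO and at 8.35 and 1.80 CPM in the combination, so its 2 combination libraries were far apart. Of 8 neutrophil markers 4 were tested, and these were called higher, where 5.85% of all genes were. They were CSF3R (2.39), CXCR2 (1.62) and MMP9 (3.18) with edgeR adjusted p = 0.00224, 0.00623 and 0.0434, and CAMP with 2 counts in DMSO and 95 in the combination. CAMP passed the filter on low counts only through its combination libraries (20 and 75 counts, against 0 to 9 in the others). Markers that stayed absent were not tested, so the count of 4 is partly set by that filter. The neutrophil granule genes MMP8, LTF and CEACAM8 had no count in any library, and the neutrophil sum was 23.2 to 30.8 CPM in DMSO and 119 to 149 CPM in the combination. Without the second combination library the log2 changes were 3.50 for LYZ, 3.39 for MNDA, 2.67 for CSF1R, 2.08 for CD14, 0.57 for FCGR1A, 0.40 for CTSS and -2.10 for VCAN. Those of the neutrophil markers were 2.25 for CSF3R, 1.65 for CXCR2, 2.27 for MMP9 and 3.94 for CAMP. The part of any of these in the S100 result was not tested.

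The 6 general myeloid markers listed, all of which were tested, cannot tell MOLM-13 from other myeloid cells. In the combination against DMSO PTPRC (log2 -0.01) and HOXA9 (-0.49) were not called (edgeR adjusted p = 0.982 and 0.0692). With the length offset HOXA9 was called lower (-0.67, edgeR adjusted p = 0.0164). SPI1 (log2 1.19) and CD33 were called higher and MEIS1 (-2.15) and FLT3 (-1.10) lower in the combination (edgeR adjusted p = 0.0324, 0.0244, 0.0467 and 0.0447), where 9.29% of all genes were called. In the combination libraries MEIS1 was at 10.8 and 2.85 CPM and FLT3 at 144 and 82.3 CPM. Without the second combination library their log2 changes were -1.50 and -0.74. Markers of other cell types were mostly at or near 0. Of 9 keratinocyte and epithelial markers 8 had no count, the exception being KRT10 (41.9 to 43.1 CPM in DMSO and 45.3 to 76.1 CPM in the combination), all 4 erythroid markers were at 0, and so were PF4 and PPBP of 3 megakaryocyte markers. CD3E had no count. CD2, which passed the filter only through the combination (1 count in DMSO and 33 in the combination), was the called member of 4 T and NK markers. The sums of that list, most of them NKG7, were 22.1 to 25.1 CPM in DMSO and 33.2 to 84.3 CPM in the combination, and those of 3 B cell markers 0.595 to 0.664 and 1.10 to 3.16 CPM.

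Finally, the genes whose profiles over the 8 libraries were most like each member were listed, as the smallest root mean square difference of centred log2(CPM + 1) values among 12393 tested genes. S100A8 and S100A9 were nearer to each other (0.232) than either was to any of these genes. Outside the family, S100A8 was most like MCEMP1 (0.414) and CEBPE (0.485), and S100A9 like MCEMP1 (0.556) and C3 (0.560), against medians over all genes of 1.79 and 1.96. MCEMP1, a membrane protein of myeloid cells, was at 0.704 and 1.23 CPM in DMSO and 14.4 and 41.8 CPM in the combination. CEBPE, a transcription factor of late granulocyte maturation, was at 0.433 and 0.569 CPM in DMSO and 9.46 and 26.0 CPM in the combination.

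The widely expressed members had other neighbours. S100A4 was most like RCN3 (0.179) and APOC1 (0.189), S100A6 like PSMB9 (0.185) and BLVRB (0.196), S100A11 like RNASE6 (0.0725) and FLOT1 (0.0842), S100A10 like CUTA (0.0361) and NANS (0.0398), and S100P like SLIRP (0.0978) and MT1E (0.109). S100A13 spanned only 0.82 log2 units, so no neighbour is named. All of these describe 8 libraries that share 4 treatments, and every neighbour named was, like the members themselves, higher in the second combination library than in the first.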

How the data were processed

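Bulk RNA of MOLM-13 was sequenced in 8 libraries of 4 groups. The authors mapped 150 bp paired-end reads to hg38 with STAR 2.5.1b and deposited a table of expected counts for 26475 gene symbols, not normalized. Counting tool, strand setting and annotation: not given in the sources used here.

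Expected counts were rounded (those of the members were whole). The test was the quasi-likelihood F test of edgeR 4.0.16 under R 4.3.3, with TMM factors and 1 fit of 4 groups, on the 12401 genes that filterByExpr kept. DESeq2 1.42.0, limma 3.58.1 (voom with library quality weights), other filters and scalings, and leaving out each library were alternatives. The length offset is a loess curve (span 0.4) per library. The pipeline was run on simulated data, without bias and with a straight length trend in the second combination library only. The short-transcript excess of the first WM1119 library was not imitated, so no support is drawn from these runs. Transcript lengths come from GENCODE release 44 (87.5% of genes matched by symbol), promoters from RefSeq GRCh38.p14. The span and gene counts on chromosome 1 also come from RefSeq. All 9 members are named. Of each other list the text names those called and the 4 of lowest p for the combination, and profile neighbours are the nearest 2. LY96, HOXA9 and PTPRC were added after their values were seen. Members and lists were chosen with earlier results of these data known, and support nothing beyond their values. Intervals are at 95%.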

Additional observations from a re-analysis of the deposited data

How the results depend on the processing

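S100A8 and S100A9 kept a higher level in the combination than in DMSO under every alternative run, at log2 5.07 to 6.90 and 4.73 to 6.44. Both were called in 6 of 8 fits that left out 1 library, and in 11 of 12 and 12 of 13 other fits. The number of S100 genes called, 5 (9.29% of all genes), became 3 with limma voom (2.95%). It was 0 when only the 2 groups compared were fitted, where 0 genes of the whole table were called. For VTP50469 against DMSO 0 (0.169% of all genes) became 1 with DESeq2 (1.24% of 16403 genes with counts). It became 2 with limma voom (9.39%) and 2 with only the groups compared (11.1%). For the combination against VTP50469 0 (0.395% of all genes) became 5 with DESeq2 (4.17%), with the length offset (3.42%) and with the length and GC offset (5.35%). It was 2 with no count filter (0.902%). For the combination against WM1119 2 (1.43% of all genes) became 4 with DESeq2 (4.35%) or the length offset (4.97%) and 5 with the length and GC offset (7.53%). It was 1 with limma voom (0.323%) or at least 10 counts in every library (1.48%, where S100A8 was not tested). With only the groups compared it was 0 (0% of all genes). For VTP50469 against WM1119 0 (0.0323% of all genes) became 1 with the length offset (0.516%) and 1 with the length and GC offset (0.952%). The interaction had 0 in each fit that kept all 8 libraries. Over the whole table the combination against DMSO had 1152 genes called by edgeR and 2288 by DESeq2. Fits with 1 library in a group assume that it varies like the other groups, and the cause of these differences was not tested. Depth leaves no fold for S100A12, and limits S100A8 in DMSO, where 19 counts over the group give an exact Poisson interval of 0.289 to 0.750 CPM.

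The labels do not say whether the replicate numbers pair the libraries. Correlations of same-numbered deviations ran from -0.66 to 0.35. The -0.66 was between WM1119 and the combination, whose libraries with high short transcripts carry different replicate numbers, so these values cannot decide on pairing. With the replicate block 2 S100 genes were called in the combination against DMSO (528 genes in all) and 0 against WM1119.

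Signs turned only for differences that were not called in the reported fit. With the replicate block S100A13 with VTP50469 was 0.0052 and S100P with WM1119 0.031. With only the groups compared S100A13 with VTP50469 was 0.0016. With the length offset S100A13 with WM1119 was -0.011, S100P was -0.29 in the combination against VTP50469 and -0.067 in the interaction, and S100A10 was 0.014 in VTP50469 against WM1119. With the length and GC offset these 4 were -0.042, -0.31, -0.071 and 0.015, and S100A13 was 0.020 in VTP50469 against WM1119. Without the second combination and first WM1119 libraries S100A13 was 0.0047 with VTP50469, -0.50 with WM1119 and 0.51 between them, S100A10 was -0.067 with WM1119 and 0.14 between them, and S100P was -0.76 against VTP50469 and -0.44 in the interaction. On leaving out 1 library, with VTP50469 S100A4 ran from -0.31 to 0.048, S100A10 from -0.057 to 0.16 and S100A13 from -0.28 to 0.20. With WM1119 S100A10 ran from -0.064 to 0.40, S100A13 from -0.50 to 0.66 and S100P from -0.32 to 0.18. S100P in the combination ran from -1.55 to 0.35 against DMSO, -0.76 to 1.14 against VTP50469 and -1.50 to 0.38 against WM1119, and from -0.71 to 1.18 in the interaction, where S100A10 ran from -0.0097 to 1.05. Between the single inhibitors S100A9 ran from -0.22 to 0.89, S100A10 from -0.35 to 0.13 and S100A13 from -0.68 to 0.49.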
